A study of Mus musculus with 6 samples.

Results

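The simple epithelial keratins Krt7, Krt8, Krt18, Krt19, Krt20 and Krt23 were followed in the mouse pancreas during acute pancreatitis (AP) and after pretreatment with polyI:C. They were chosen by name as keratins of single-layered epithelia, and all 6 were among the 22556 genes with a value and among the 16814 genes tested. RNA-sequencing was made on total pancreas RNA from wild type C57BL/6 mice at post natal week 8, with 2 saline mice, 2 AP mice and 2 mice given polyI:C before AP was induced (polyI:C+AP mice). AP was induced by repeated injections of cerulein (also spelled caerulein), a peptide that overstimulates acinar cells through the cholecystokinin receptor, and the pancreas was taken the day after. PolyI:C, a synthetic double-stranded RNA that activates Toll-like receptor 3, was injected before cerulein, and the AP mice are named in the labels without polyI:C. None of these groups had polyI:C without cerulein, so the comparisons describe polyI:C only in mice with AP.

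Keratins are the intermediate filament proteins of epithelial cells. A filament is built from pairs of 1 type I and 1 type II chain, so that the type II keratins Krt7 and Krt8 need type I partners such as Krt18, Krt19, Krt20 and Krt23. In the pancreas, Krt8 and Krt18 are the main keratins of acinar cells, and both are known to increase when acinar cells are injured. Krt7 and Krt19 are used as markers of duct cells, but values from whole pancreas do not show which cells made them. Krt20 is best known from the intestine, the stomach and the bladder. Krt23 is a divergent type I keratin with few known functions.

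Both type II genes lie in the type II cluster of chromosome 15, and in mouse as in human the type I gene Krt18 sits there too, next to Krt8. The other type I genes lie in the type I cluster of chromosome 11. In GRCm38 (mm10) coordinates with GENCODE M21 gene models, Krt8 (ENSMUSG00000049382) spans 101996698 to 102004482 of chromosome 15 on the minus strand. Krt18 (ENSMUSG00000023043) spans 102028180 to 102032027 of the same chromosome on the plus strand. Their start sites are 23.7 kb apart with 0 annotated genes between them, and the genes point away from each other. Krt7 (ENSMUSG00000023039, 101411043 to 101430313, plus strand) starts 593 kb away from Krt8, with 42 annotated genes between them, 23 of which are keratins. On chromosome 11, Krt20 (ENSMUSG00000035775, 99428403 to 99438150) and Krt23 (ENSMUSG00000006777, 99477974 to 99493137) are direct neighbours on the minus strand, with start sites 55 kb apart. Krt19 (ENSMUSG00000020911, 100140810 to 100148665, minus strand) starts 711 kb from Krt20.

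The promoter stretches of the neighbours Krt8 and Krt18 and of Krt20 are shown because the first pair gave the highest levels and Krt20 the largest rise. Each runs from 250 bases before to 50 bases after the start site in RefSeq's GRCm38.p6 annotation, 5′ to 3′ on the strand of the gene. Capitals mark matches, on either strand, to the TATA box TATAAA and to GGAATG, the core of the site bound by TEAD factors. The GC box GGGCGG and the AP-1 site TGANTCA were searched as well.
Krt8, chr15:102004293-102004592, minus strand: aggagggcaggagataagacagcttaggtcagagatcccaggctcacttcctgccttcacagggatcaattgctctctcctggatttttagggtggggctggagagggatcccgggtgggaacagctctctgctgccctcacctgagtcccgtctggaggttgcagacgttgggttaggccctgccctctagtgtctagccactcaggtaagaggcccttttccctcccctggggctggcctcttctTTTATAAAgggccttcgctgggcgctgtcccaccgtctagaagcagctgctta
Krt18, chr15:102027966-102028265, plus strand: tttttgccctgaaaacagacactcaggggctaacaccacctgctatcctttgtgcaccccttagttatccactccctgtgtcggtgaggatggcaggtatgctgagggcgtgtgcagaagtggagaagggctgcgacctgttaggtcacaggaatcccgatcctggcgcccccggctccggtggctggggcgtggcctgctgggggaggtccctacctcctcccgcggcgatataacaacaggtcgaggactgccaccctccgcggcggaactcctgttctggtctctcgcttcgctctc
Krt20, chr11:99438104-99438403, minus strand: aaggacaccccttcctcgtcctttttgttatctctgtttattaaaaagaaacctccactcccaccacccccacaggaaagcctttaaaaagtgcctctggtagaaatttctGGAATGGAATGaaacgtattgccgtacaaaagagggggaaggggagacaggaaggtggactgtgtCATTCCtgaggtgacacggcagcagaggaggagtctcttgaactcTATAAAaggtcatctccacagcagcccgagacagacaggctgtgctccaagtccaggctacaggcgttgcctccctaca
The Krt20 stretch holds TATAAA with its first base 29 bases before the start site and GGAATG in 3 places, 2 of which overlap by a base. In Krt8, TATAAA matched on both strands at the RefSeq start site itself, the matches overlapping each other. The RefSeq start sites are not the GENCODE ones given above. In Krt8 the GENCODE start, base 102004482, lies before the RefSeq start and inside the stretch shown. The Krt18 stretch held none of the 4 motifs. Among 32817 mouse promoter stretches of the same length, 13.6% held TATAAA, 14.7% held GGAATG, 35.6% held GGGCGG and 7.81% held TGANTCA. Of the 5 keratins with a sequence, Krt7 alone held GGGCGG, and none held TGANTCA. These matches are letters in a window and say nothing of binding.

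The values are TPM (a transcript's share of the library, after its reads are divided by its length), so that levels can be compared between genes. Low TPM values fell in steps from which the reads per library were estimated, between 3310435 and 10818736, with both saline libraries the smallest. Summed TPM of 11 listed acinar markers, among them Spink1, Serpini2 and Cckar, was 54008 and 58053 in saline mice, 24917 and 21084 in AP mice, and 27396 and 30895 in polyI:C+AP mice. Most of this sum was 1 gene, Spink1, so it is not a level of the 11 markers alike. Spink1 was at 38301 and 40740 TPM in saline, 23568 and 19872 in AP, and 25577 and 28861 in polyI:C+AP mice. Serpini2 added 13304 and 14852 TPM in saline mice. TPM are shares of a total. The median of all tested genes was 0.45 higher on the log2 scale in AP than in saline mice and 0.48 higher in polyI:C+AP than in saline mice, against 0.04 between both AP groups. In whole pancreas, fewer cells of a type and less RNA per cell cannot be told apart.

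**Figure D1:**
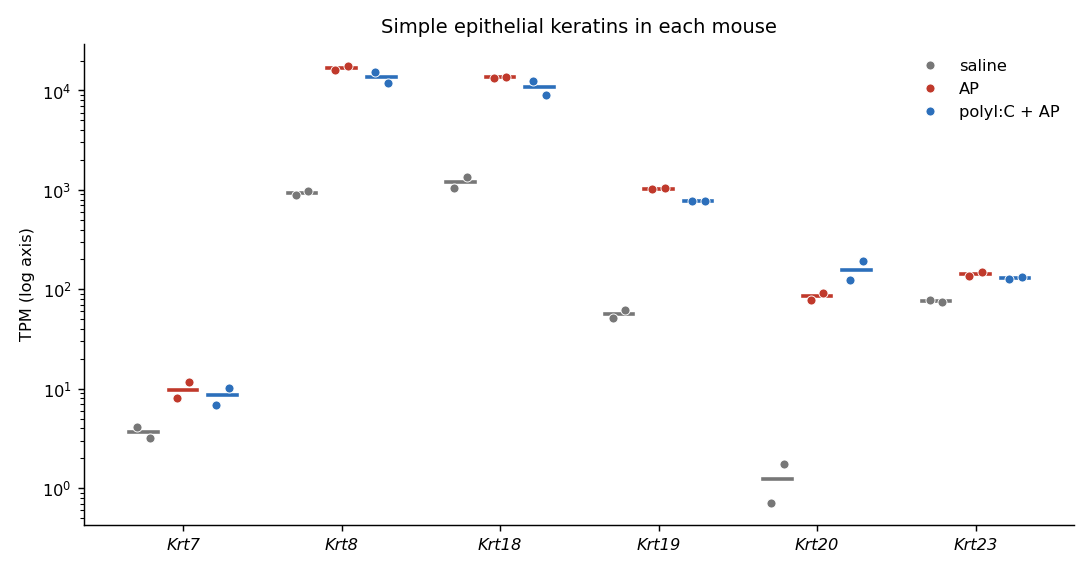
TPM of each keratin (log axis) in every mouse, with 1 point per mouse and a bar at the mean of each group of 2. In all 6 genes both AP mice and both polyI:C+AP mice lie above both saline mice, and Krt20 is the gene whose polyI:C+AP mice lie above the AP mice.

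In saline mice the levels ran from rank 69 (Krt18) to rank 16000 (Krt20) of all genes with a value. Krt18 was highest at 1192 ± 218 TPM (SD, n = 2 here and below), followed by Krt8 at 936 ± 66.5 TPM, and the values of the 2 genes did not overlap. Krt23 at 76.8 ± 2.81 TPM came before Krt19 at 56.8 ± 7.9 TPM, again without overlap. Krt7 was at 3.67 ± 0.653 TPM and Krt20 at 1.23 ± 0.734 TPM. The order changed in AP mice, where Krt8 stood above Krt18, Krt19 above Krt23, and Krt20 above Krt7. In polyI:C+AP mice the ranges of Krt8 and Krt18 overlapped, and so did those of Krt20 and Krt23, although Krt8 was above Krt18 within each of the 2 mice.

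Pancreatitis came with higher levels of all 6 keratins, 5 of which passed the threshold. Krt8, Krt18, Krt19, Krt20 and Krt7 were called higher in AP against saline mice, the threshold being an adjusted p of at most 0.05 by limma, with Benjamini-Hochberg adjustment over all tested genes, and a fold change of at least 2. Of all tested genes, 18.2% were called higher in this comparison. The median log2 fold change of the 6 keratins was 3.84, against 0.45 over all tested genes. Both AP mice lay above both saline mice in 6 of 6 keratins, and this was so for 52.6% of all tested genes. Fold changes are on the scale of TPM + 0.5.

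Krt8, the type II partner of acinar and duct filaments, was at 889 and 983 TPM in saline mice and at 15874 and 17678 TPM in AP mice. It ranked 106 and 98 among all genes in the saline libraries and 4 and 3 in the AP libraries, where the ranking holds only genes with a value here, without 15 of the 26 acinar genes looked for. The log2 fold change was 4.16 (SE 0.16, limma adjusted p = 2.48e-05), or 17.9-fold. Of the stretches of 100 bases in Krt8 exons, 16.9% also occur in the processed pseudogene Krt8-ps (chromosome 7, 23357125 to 23358069), which was listed at 5.07 and 3.57 TPM in saline mice and at 67.9 and 80.3 TPM in AP mice, so reads may be split between them. No other member shares such stretches with another gene.

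Krt18, the type I partner of Krt8, was at 1038 and 1346 TPM in saline mice and at 13497 and 13595 TPM in AP mice. Its log2 fold change of 3.52 (SE 0.19, limma adjusted p = 6.72e-05) is an 11.5-fold rise. The AP mice were far apart from the saline mice and nearly equal to each other, and ranked 7 and 6 among all genes.

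Krt19, the smallest keratin and a marker of duct cells, was at 51.2 and 62.4 TPM in saline mice and at 1016 and 1041 TPM in AP mice. The rise of 4.17 on the log2 scale (SE 0.11, limma adjusted p = 1.27e-05), or 18-fold, was of the size of that of Krt8. Krt19 moved from ranks 2296 and 1949 to ranks 86 and 90 of all genes, while its level stayed between 4.96% and 6.51% of that of Krt8 in all 6 mice.

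Krt20 changed the most. It was at 0.711 and 1.75 TPM in saline mice, which rest on about 2 and 4 reads, and at 78.9 and 93 TPM in AP mice, which rest on about 324 and 484 reads. The fitted log2 fold change was 5.71 (SE 0.32, limma adjusted p = 8.15e-05), the 14th largest of the 16814 tested genes, and ran from 5.32 to 6.13 with pseudocounts of 1 and 0.1 TPM. From the pooled reads, 808 against 6, the ratio of the levels was 73.8, with an exact 95% interval from 33.8 to 202 that covers counting error only.

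Krt7, the second type II keratin and a duct and mesothelial gene, was at 4.13 and 3.21 TPM in saline mice and at 8.02 and 11.6 TPM in AP mice. The log2 fold change was 1.29 (SE 0.27, limma adjusted p = 0.00899), a 2.45-fold rise that did not hold under every setting. It was 0.90 after scaling each library by the median of ratios, under the 2-fold threshold. Without saline mouse 2 it was 1.13 (limma adjusted p = 0.065), and without AP mouse 2 it was 1.04 (limma adjusted p = 0.105). Summed TPM of 8 mesothelial markers was 71.4 and 72.6 in saline mice and 54.2 and 145 in AP mice, higher in the AP mouse that also had more Krt7, and its part in Krt7 was not tested.

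Krt23 was at 78.8 and 74.8 TPM in saline mice and at 135 and 151 TPM in AP mice. The difference of 0.89 (SE 0.11, limma adjusted p = 0.00123), or 1.85-fold, was larger than the spread between mice but under the 2-fold threshold, and after median-of-ratios scaling it was 0.46. Krt23 lies 55 kb from Krt20, whose level rose at the same time by 5.71 on the log2 scale.

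**Figure D2:**
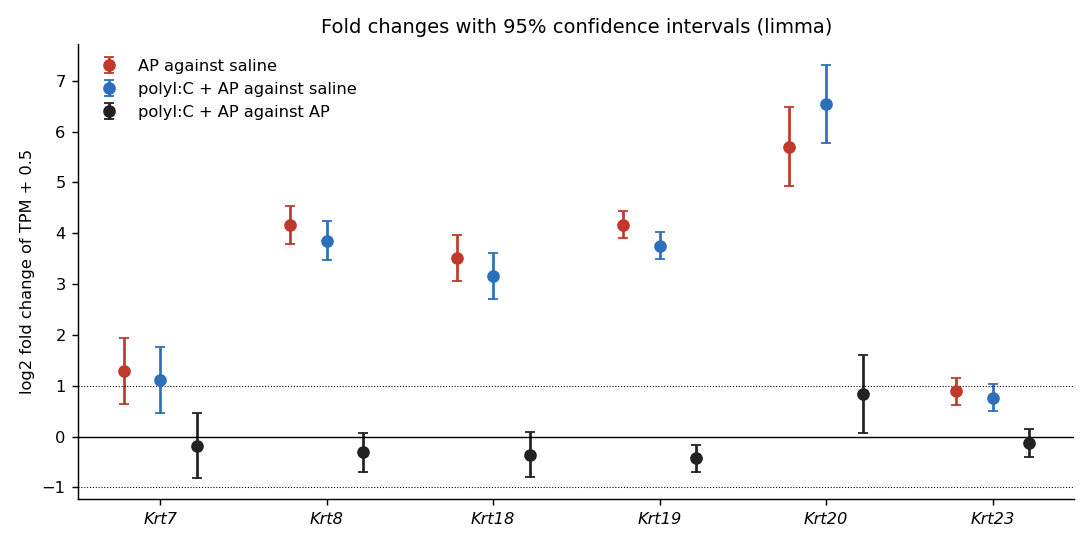
Log2 fold change of TPM + 0.5 for each keratin in the 3 comparisons, with 95% confidence intervals from limma; dotted lines mark 2-fold in either direction. Krt8, Krt18, Krt19 and Krt20 lie between 3.16 and 6.55 against saline in both AP groups, whereas polyI:C+AP against AP lies between -0.42 and 0.84.

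After polyI:C pretreatment Krt8, Krt18, Krt19 and Krt20 were between 8.96-fold and 93.6-fold above saline levels. In polyI:C+AP against saline mice, 5 of 6 keratins were called higher by limma, where 16.9% of all tested genes were, and in 6 of 6 both polyI:C+AP mice lay above both saline mice, as in 54.4% of all tested genes. This comparison shares its saline mice with that of AP against saline mice. The log2 fold changes were 3.85 for Krt8, 3.16 for Krt18, 3.75 for Krt19, 6.55 for Krt20 and 1.11 for Krt7, with limma adjusted p-values from 1.66e-05 to 0.017. Krt23 was at 0.77 and again under 2-fold, and at 0.31 after median-of-ratios scaling (limma adjusted p = 0.0804). The call of Krt7 was lost in 7 of the alternatives tried, those being median-of-ratios scaling, 1 prior variance for all genes and leaving out saline mouse 2, either AP mouse or either polyI:C+AP mouse. With a filter at a mean of 10 TPM, Krt7 was not tested.

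Set directly against AP mice, which are also the AP mice of the first comparison, polyI:C+AP mice had 0 of 6 keratins called in either direction by limma. Over all tested genes, 0.44% were called higher and 0.404% lower. At an unadjusted p of at most 0.05, 1 of 6 keratins was higher, Krt20, and 1 was lower, Krt19, where 7.83% of all tested genes were higher and 6.07% lower at that p. Both polyI:C+AP mice lay below both AP mice for 4 of 6 keratins, Krt8, Krt18, Krt19 and Krt23, as for 22.1% of all tested genes. They lay above both AP mice for 1 of 6, Krt20, as for 27.7% of all tested genes.

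Krt8 was at 15477 and 11814 TPM in polyI:C+AP mice, 13646 ± 2590 against 16776 ± 1276 TPM in AP mice. The log2 difference of -0.31 (limma adjusted p = 0.461) had a 95% interval from -0.69 to 0.07, so a fall of up to 0.69 on the log2 scale lies within the error. Krt18 was at 12431 and 9038 TPM, 10735 ± 2399 against 13546 ± 69.3 TPM, with a difference of -0.35 (limma adjusted p = 0.477, 95% interval -0.80 to 0.10). In both genes the second polyI:C+AP mouse was lowest. Without it the differences were -0.11 for Krt8 and -0.12 for Krt18, and without the first polyI:C+AP mouse they were -0.50 and -0.58.

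Krt19 was at 767 and 769 TPM in polyI:C+AP mice, 768 ± 1.35 against 1029 ± 18 TPM in AP mice. The mice of each group lay close together and the groups were apart. The difference of -0.42 had a 95% interval from -0.69 to -0.16 and an unadjusted p of 0.00742, but did not pass after adjustment over all genes (limma adjusted p = 0.152). It ran from -0.45 to -0.40 over all alternatives tried.

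Krt20 went the other way, to 124 and 191 TPM, 158 ± 46.9 against 85.9 ± 9.91 TPM in AP mice. The 1.79-fold difference (0.84 on the log2 scale, 95% interval 0.07 to 1.61, with an unadjusted p of 0.0361) did not pass after adjustment over all genes (limma adjusted p = 0.316). It was 1.15 without the first polyI:C+AP mouse and 0.54 without the second. Against saline mice the pooled reads, 1837 against 6, gave a ratio of 137 with an exact 95% interval from 62.9 to 374, for counting error only.

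Krt7 was at 6.94 and 10.3 TPM and overlapped with the AP mice (-0.18, limma adjusted p = 0.836, 95% interval -0.82 to 0.46). Its sign turned when AP mouse 2 was left out, to 0.07, or polyI:C+AP mouse 1, to 0.09. Krt23 was at 128 and 134 TPM, a difference of -0.12 (limma adjusted p = 0.7, 95% interval -0.39 to 0.14). Expressed as a share of the rise in mean TPM from saline to AP mice, polyI:C+AP mice kept 80.2% for Krt8, 77.2% for Krt18, 73.2% for Krt19, 81.0% for Krt7, 81.9% for Krt23 and 184.5% for Krt20. No interval was computed for these shares, and none of the differences from AP mice behind them was called.

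The balance of type I and type II keratins is of interest because the filament needs both. Summed over the 6 genes, keratins made up 2061 and 2471 TPM in saline mice, 30609 and 32570 TPM in AP mice, and 28935 and 21956 TPM in polyI:C+AP mice. As a percentage of total TPM, not of reads, they went from 0.206% and 0.247% to 3.06% and 3.26%, and were at 2.89% and 2.2% with polyI:C. Only 11 of the 26 acinar genes looked for had a value here, so these may not be shares of all pancreas RNA. Krt8 and Krt18 together held between 93.5% and 96.5% of the sum in every mouse.

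The ratio of Krt8 to Krt18 was 0.856 and 0.73 in saline mice, 1.18 and 1.3 in AP mice, and 1.25 and 1.31 in polyI:C+AP mice. Saline mice had more Krt18 than Krt8, and all 4 cerulein-treated mice more Krt8 than Krt18. An exact permutation test (two-sided) of AP against saline mice gave p = 0.333, the smallest that 2 mice against 2 allow, and polyI:C+AP against AP mice gave p = 0.667. The ratio of all type II to all type I TPM was 0.764 and 0.664, then 1.08 and 1.19, then 1.15 and 1.17, in the same order of groups (exact permutation p = 0.333 and p = 1 for the same comparisons).

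**Figure D3:**
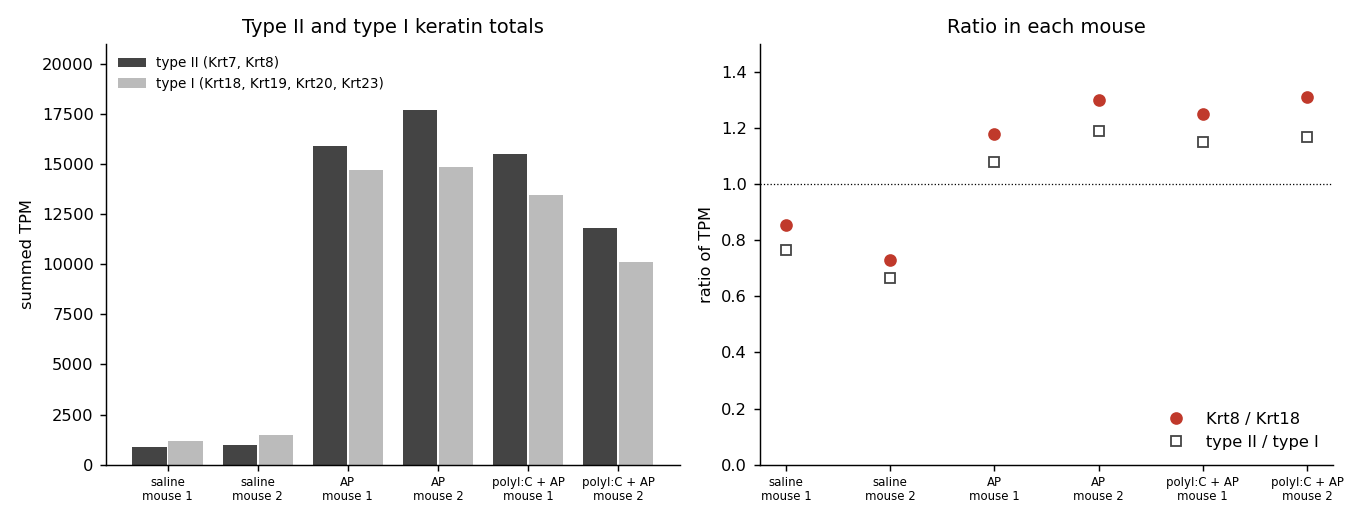
Left, summed TPM of type II (Krt7, Krt8) and type I (Krt18, Krt19, Krt20, Krt23) keratins in each mouse; right, the ratios of Krt8 to Krt18 (circles) and of type II to type I (squares), with a dotted line at 1. Both ratios are below 1 in the saline mice and between 1.08 and 1.31 in the other 4 mice.

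Among the minor type I chains the make-up turned over. Krt23 was 1.54 and 1.2 times the level of Krt19 in saline mice but between 0.133 and 0.174 times in the other 4 mice. Krt20 was 1.39% and 2.8% of Krt19 in saline mice, 7.77% and 8.93% in AP mice, and 16.2% and 24.8% in polyI:C+AP mice. The 3 groups did not overlap in this share.

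Krt19 and Krt7 are used as duct markers, so 15 other duct markers were read beside them. In AP against saline mice, 4 of the 15 were called higher and 0 lower by limma, or 3 higher after median-of-ratios scaling and from 3 to 6 when 1 mouse was left out, where 18.2% of all tested genes were called higher. Their median log2 fold change was 1.00, against 0.45 over all tested genes. The called genes were the calcium-dependent membrane-binding protein Anxa3 (3.33), the epithelial adhesion molecule Epcam (2.90), the secreted phosphoprotein Spp1 (2.34) and the chloride channel Cftr (2.01). Sox9, a transcription factor of duct cells, was at 0.28 (limma adjusted p = 0.54). In polyI:C+AP against AP mice 0 of the 15 were called by limma, with 2 higher and 2 lower at an unadjusted p of at most 0.05. Over all tested genes, 7.83% were higher and 6.07% lower at that p. The summed level of the 15 genes ran from 525 to 651 TPM in saline mice, 1914 to 1996 in AP mice and 1848 to 2218 in polyI:C+AP mice, and the part of duct cells in the keratin values was not tested.

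The second polyI:C+AP mouse stood apart in duct genes. Car2, a carbonic anhydrase, was at 44.7 TPM there against 5.36 in the first mouse, Tspan8 at 144 against 26.1, Cftr at 17.1 against 4.5, the bicarbonate transporter Slc4a4 at 23.9 against 5.79 and Atp1b1 at 77.7 against 20.5. In all, 6 of the 15 duct markers were over 2-fold higher in that mouse than in the first, while the median ratio of the 15 was 1.17. Mesothelial markers summed to 96.3 TPM in that mouse against 54.4 in the first, but the AP mice were further apart, at 145 in the second against 54.2 in the first. The same mouse had 1.53 times the Krt20 and 1.48 times the Krt7 of the first, equal Krt19, 0.763 times the Krt8 and 0.727 times the Krt18. The genes quoted were chosen after their values were seen, and their part in the keratin values was not tested.

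**Figure D4:**
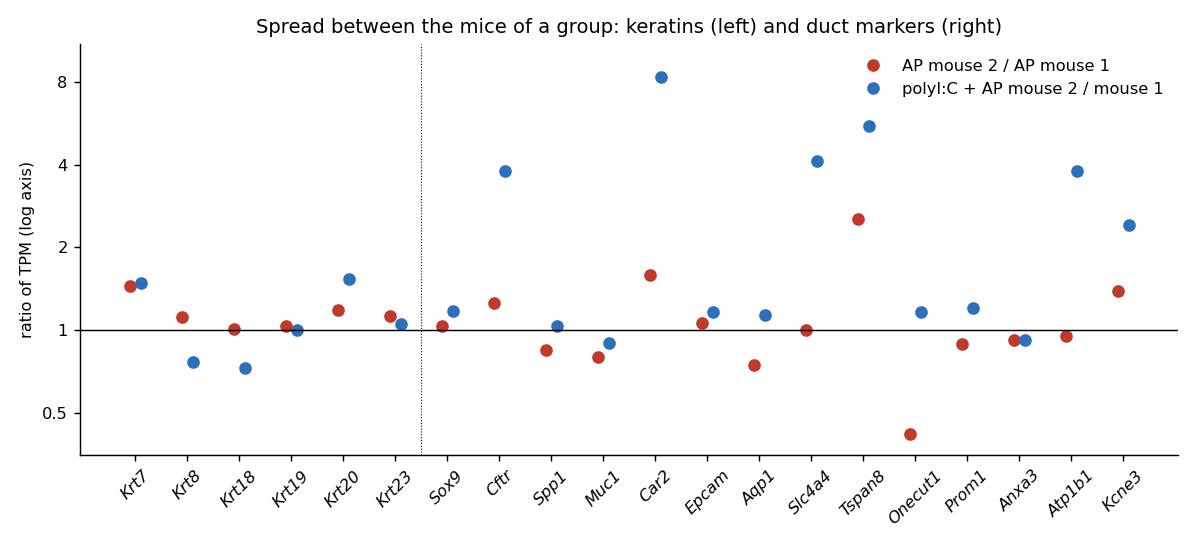
TPM in the second mouse divided by TPM in the first (log axis) within AP mice and within polyI:C+AP mice, for the 6 keratins and 14 of the duct markers. Keratins lie between 0.727 and 1.53, while Car2 reaches 8.34 and Tspan8 5.53 in the polyI:C+AP mice.

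Most acinar markers were lower in AP. Of 26 listed acinar genes 11 had a value, and 0 were called higher and 7 lower in AP against saline mice. Of all tested genes, 18.2% were called higher and 4.03% lower in this comparison. The median of the 11 acinar genes was -1.85, against 0.45 over all tested genes. The largest falls were those of Serpini2, a serine protease inhibitor of acinar cells (-4.67), and Amy2a5, a pancreatic amylase (-3.65). The transcription factor Bhlha15 fell from 391 and 326 TPM to 53.6 and 46.4 TPM (-2.83, limma adjusted p = 3.94e-05). Ptf1a (0.20) and Nr5a2 (0.16), acinar transcription factors, were not called. Gata4 (-0.76, limma adjusted p = 0.0107) and Spink1 (-0.87, limma adjusted p = 0.00269) were lower but under the 2-fold threshold. After median-of-ratios scaling, 9 of the 11 were called lower. In polyI:C+AP against AP mice, 4 of the 11 were called higher, where 0.44% of all tested genes were called higher and 0.404% lower. They were Bhlha15 (1.73), the cholecystokinin receptor Cckar (1.66), Amy2a5 (1.48) and the acinar transcription factor Rbpjl (1.08), with limma adjusted p-values from 0.00371 to 0.0335. Serpini2 was at -0.36 and the disulfide isomerase Pdia2 at -1.11, neither called. The 4 calls were lost without either AP mouse or either polyI:C+AP mouse. Leukocyte markers had 7 of 11 called higher in AP against saline mice, 4 after median-of-ratios scaling and from 3 to 7 when 1 mouse was left out. Lyz2, Csf1r and Itgam, 3 of the 11, were called lower in polyI:C+AP against AP mice, and these calls too were lost without either AP mouse or either polyI:C+AP mouse.

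Keratins outside the simple epithelial set that had a value were at low levels, although Krt80 was above Krt7 in saline and AP mice. Of 28 listed, 13 had a value and 4 reached a mean of 1 TPM. Of these 4, 2 were called higher in AP against saline mice, where 18.2% of all tested genes were. Krt17, a type I keratin of stressed and regenerating epithelia, was at 0.442 and 0.543 TPM in saline, 6.94 and 5.49 in AP and 4.18 and 7.82 TPM in polyI:C+AP mice (2.75 in AP against saline, limma adjusted p = 0.00376). Krt80, a type II keratin, was at 5.41 and 4.75, then 17.7 and 21.3, then 11.8 and 8.72 TPM (1.84, limma adjusted p = 0.000648). Krt10 (-0.49, limma adjusted p = 0.4), a keratin of the upper skin layers, and Krt222 (-0.02, limma adjusted p = 0.983) did not pass. Together the 13 amounted to between 11.8 and 33.7 TPM in any mouse, against at least 2061 TPM for the simple epithelial keratins, mostly Krt8 and Krt18.

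Genes that anchor keratin filaments were read next, beside the 18.2% of all tested genes called higher and their median of 0.45. Of 13 tested linker and desmosome genes, 8 were called higher in AP against saline mice and 0 lower by limma, with a median log2 fold change of 1.05, but 3 after median-of-ratios scaling, with a median of 0.62. The largest were the plakin Evpl (1.60), the desmosomal plakophilin Pkp3 (1.60) and the cytolinker Dst (1.59). Among partners of keratins in stress and inclusion bodies, 9 of 13 were called higher and 0 lower, with a median of 1.52, and 7 after that scaling, with a median of 1.09. They were led by the inducible heat shock protein Hspa1b (4.35), the 14-3-3 protein Sfn (3.99) and the small heat shock protein Hspb1 (2.96). Hspa1b has a near-identical copy in Hspa1a, so its reads are uncertain. Of 10 other intermediate filament genes tested, 4 were called higher, Lmnb2 (2.16), Nes (2.14), Vim (1.95) and Lmna (1.60). In polyI:C+AP against AP mice, limma called 0 genes of the 3 lists, where 0.44% of all tested genes were called higher and 0.404% lower. At an unadjusted p of at most 0.05, 2 linkers were higher and 1 lower, and 3 partners higher and 2 lower. Among the other intermediate filament genes, 1 was lower at that p. Over all tested genes, 7.83% were higher and 6.07% lower at that p. Median differences of the 3 lists were -0.02, 0.01 and -0.03.

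Markers of other cells were read for comparison. By limma, 0 of 8 mesothelial, 0 of 8 endothelial and 0 of 9 islet markers were called in AP against saline mice, with medians of 0.15, 0.04 and -0.11. At an unadjusted p of at most 0.05, 1 mesothelial and 1 endothelial marker was higher and 1 islet marker was lower. The share of all tested genes at that p was not taken for AP against saline mice, so these counts are description only. Stellate and fibroblast markers had 4 of 9 called higher, with a median of 1.16, where 18.2% of all tested genes were. At an unadjusted p of at most 0.05, 6 were higher and 1, the proteoglycan Dcn (-0.73), was lower, again without a share over all tested genes beside it. After median-of-ratios scaling, 3 of the 9 were called higher and 1 lower, with a median of 0.73. From 2 to 7 of the 9 were called higher when 1 mouse was left out.

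**Figure D5:**
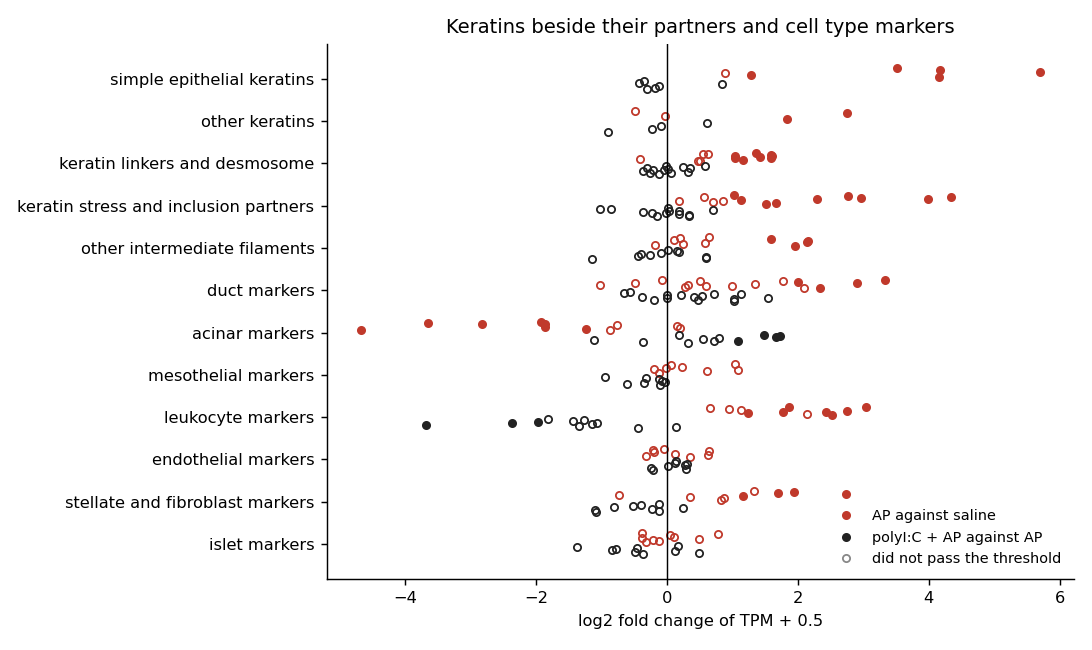
Log2 fold change of TPM + 0.5 for each tested gene of the keratins, their partners and the cell type markers, in AP against saline mice (red) and polyI:C+AP against AP mice (black), filled where the gene passed the threshold. The keratin medians are 3.84 and -0.24, and in black the filled points are 4 acinar and 3 leukocyte markers.

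The genes most like each keratin across the 6 mice were taken from those with a mean of at least 10 TPM, by the root mean square difference of log2(TPM + 0.5), centred on each gene's mean. Krt8 was most like Krt19 (0.13), the integrin Itga2 (0.16) and the lipid droplet protein Plin2 (0.19). Krt19 was most like Itga2 (0.13), Tnip1 (0.13) and Krt8 (0.13). Krt18 lay nearer to Aaas (0.12), Clic1 (0.14) and Mvp (0.20) than to its partner Krt8 (0.33). Krt7 had Atad2 (0.07), Aprt (0.08) and Tusc1 (0.14) beside it. Krt23 was matched by Tex10 (0.02), the spectrin Sptan1 (0.03) and Zc3h18 (0.03). For Krt20 no gene came closer than 0.42, and the nearest were Mir7647 (0.42), the anion transporter Slc26a9 (0.50) and Mir7688 (0.57), of which the miRNA genes are short and listed at 0 in both saline mice. Krt20 and its chromosomal neighbour Krt23 lay 2.55 apart.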

How the data were processed

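Total pancreas RNA of 6 mice was sequenced. The authors deposited TPM per gene and mouse, which were used as deposited. Per the labels and the study's methods, the authors used Trimmomatic for trimming, STAR for alignment to mm10 and HTSeq for counting, and the step from counts to TPM is not given in the sources used here. Of the 22556 Ensembl identifiers, 22490 were found in GENCODE M21.

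Groups were taken from the sample labels, which do not say that the mice of a group came from separate experiments, so p-values measure the spread between these samples only. Replicates were numbered there, but numbers did not pair the mice. Differences were tested with limma 3.58.1 in R 4.3.3 on log2(TPM + 0.5), with 1 coefficient per group over all 6 mice, for the 16814 genes whose mean reached 1 TPM, and a prior variance following log2(mean TPM × exon length + 1). The thresholds were an adjusted p of 0.05 and a 2-fold change. The script was tested on simulated data. Ratios were tested by exact permutation. Reads were estimated from the spacing of low TPM values, of which between 51.1% and 62.3% per library lay within 0.1 of a whole number of up to 20 reads, against 19.0% to 21.3% with gene lengths shuffled. Whole reads were not recovered for nearly all genes, so no count model was used. Shared sequence was counted over stretches of 100 bases of GENCODE M21 exons.

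The members, gene lists and tests were chosen with earlier results of these data known. Named genes are the 6 keratins, the other keratins at a mean of at least 1 TPM, the 3 called genes with the largest change in AP of each partner and duct list, genes called with polyI:C, and the 3 nearest genes of each keratin. Of the other marker lists, only the 3 highest acinar markers are named by level, and no mesothelial, endothelial or islet marker is named. Cftr, Sox9, Lmna, Ptf1a, Nr5a2, Gata4, Pdia2, Dcn, Krt8-ps, Amy2a5 and the duct genes of the second polyI:C+AP mouse were added after their values were seen. The values of 1 duct marker are not reported here. Alternatives were other pseudocounts, filters, scalings and priors, an unadjusted p, a block for the replicate number, and fits without each mouse in turn.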

Additional observations from a re-analysis of the deposited data

How the results depend on the processing

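The number of keratins called was 4 or 5 in each AP group against saline mice, and 0 in polyI:C+AP against AP mice, under every alternative tried. Krt8, Krt18, Krt19 and Krt20 passed in both comparisons with saline in all of them. For Krt7 in polyI:C+AP against AP mice, the log2 difference ran from -0.45 to 0.09 when each mouse was left out in turn, with 0.0732 without AP mouse 2 and 0.0917 without polyI:C+AP mouse 1. Over all tested genes, 3730 were called in AP against saline mice, against 2457 with a mean of at least 10 TPM, where fewer genes are tested, and from 2385 to 3718 when 1 mouse was left out. In polyI:C+AP against AP mice, 142 were called, against 90 with no filter, 28 with a prior following mean log2 TPM, 41 with 1 prior variance, 728 at an unadjusted p, and from 0 to 69 when 1 mouse was left out; the cause of these differences was not tested. Mice with the same number did not deviate together (correlations across genes of 0.008, -0.004 and 0.035), and with the replicate block 5 keratins were called in AP against saline, 5 in polyI:C+AP against saline and 0 in polyI:C+AP against AP mice, with 3646, 3287 and 124 genes over all. The counts of partner and marker genes under median-of-ratios scaling and without each mouse were added after seeing the data. With 2 mice per group, the 95% interval of the polyI:C difference in Krt7 spans -0.82 to 0.46, and the saline level of Krt20 rests on about 6 reads.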
